A study of Homo with 4 samples.

Results

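The 10 genes described here encode chaperones and folding enzymes of the endoplasmic reticulum (ER) and components of the unfolded protein response (UPR). They are HSPA5, HSP90B1, CALR, CANX, PDIA3, PDIA4, PDIA6, DNAJB9, XBP1 and HERPUD1. They were chosen by name, the question being whether ER stress genes respond to a hairpin against IGF2BP3. Each was found in the deposited tables by its GRCh38 position. All 10 were among the 20263 genes counted and among the 13379 genes with enough reads to be tested. Together they took 0.331% to 0.383% of all counts in a library.

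RNA was sequenced from H1299, an established line of human non-small cell lung cancer, classed in the labels as lung epithelial cells. The 2 shCtrl libraries came from cells infected with lentivirus carrying a control hairpin, with the genotype label WT. The 2 shIGF2BP3 libraries came from cells infected with lentivirus carrying a hairpin against IGF2BP3, an RNA-binding protein of the insulin-like growth factor 2 mRNA-binding family. Both groups were grown in medium with serum, and the labels list no agent that provokes ER stress in either group. The labels give the libraries of a group as biological replicates, but do not say whether both shIGF2BP3 libraries carry the same hairpin.

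Newly made membrane and secreted proteins fold in the lumen of the ER with the help of chaperones, lectins that hold glycoproteins, and enzymes that make and rearrange disulfide bonds. When unfolded proteins accumulate, the sensors IRE1 (gene ERN1), PERK (EIF2AK3) and ATF6 are activated. IRE1 splices XBP1 mRNA, PERK slows translation while ATF4 is made, and ATF6 is cut to release a transcription factor. Chaperone genes, components that carry misfolded proteins to the proteasome, and DDIT3 (CHOP) are well known targets of this response.

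IGF2BP3 itself was measured at 41.1 and 32.9 CPM (counts scaled to the TMM-adjusted size of each library) in the shCtrl libraries. In shIGF2BP3 it was at 26.4 and 24.8 CPM. Both shIGF2BP3 libraries lay below both controls, by 0.53 on the log2 scale (SE 0.17, edgeR adjusted p = 0.472). Of all genes tested, 23.5% lay below both controls in this way. The measured level was thus lower and the transcript still present, and the drop was 1.45-fold, under the fold threshold of 1.5 used below. In bulk RNA, less of a transcript per cell and fewer cells carrying it cannot be told apart.

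Total counts ran from 29709686 to 34817513 per library, and mitochondrially encoded genes took from 9.11% (shCtrl replicate 1) to 17.02% (shIGF2BP3 replicate 2) of them. Of 7 epithelial and lung markers in the table, KRT8, KRT18 and KRT7 reached 1 CPM in all 4 libraries, while EPCAM, CDH1, KRT19 and NKX2-1 were at or near 0. The summed level of these 7 markers ran from 1798.8 to 2196.1 CPM in shCtrl and from 1890.7 to 2113.6 CPM in shIGF2BP3. Of 9 markers of other cell types, VIM, CDH2 and CD68 reached 1 CPM in all libraries, and PTPRC, the pan-leukocyte marker, was at 0 in all 4. Their sum, nearly all of it VIM, ran from 4419.3 to 5101.5 CPM in shCtrl and from 5309.8 to 7182.3 CPM in shIGF2BP3. The part of this mesenchymal marker in the values below was not tested.

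In FPKM, fragment counts divided by transcript length and library size, a unit that allows levels to be compared between genes, the 10 genes spanned a wide range. CALR and HSP90B1 were the most abundant, at means over the 4 libraries of 271 and 270 FPKM, and their values overlapped. HSPA5 followed at 128 FPKM and did not overlap with HSP90B1. HSPA5, PDIA3 (115), PDIA6 (108), CANX (98.5) and PDIA4 (61.6 FPKM) formed a series in which each gene overlapped with the next. The lower 3 were XBP1 at 12.2, HERPUD1 at 6.38 and DNAJB9 at 3.55 FPKM, and none of them overlapped with its neighbour in this order.

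**Figure D1:**
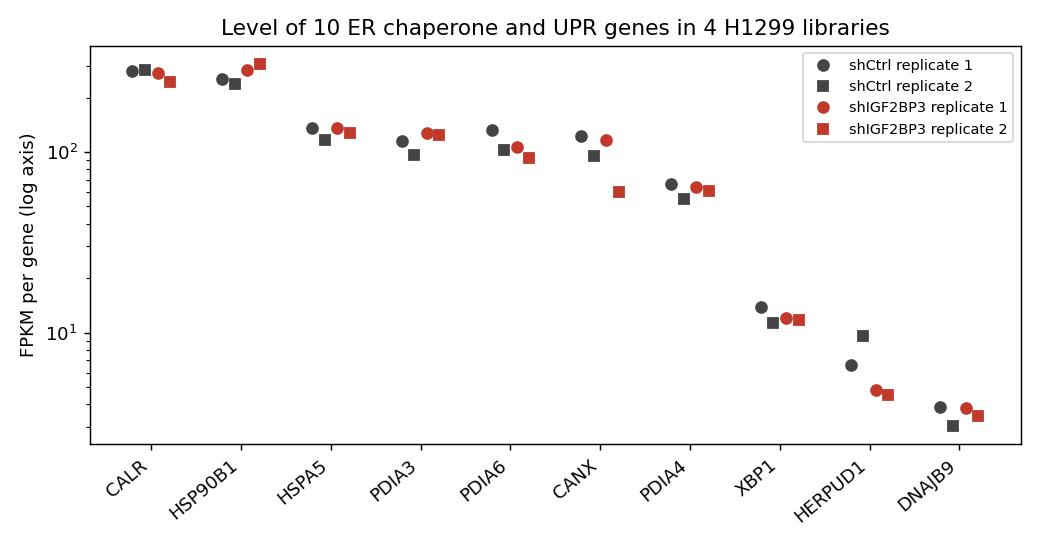
FPKM per gene on a log axis for the 10 genes, ordered by mean level, with 1 point for each of the 2 shCtrl (grey) and 2 shIGF2BP3 (red) libraries. The 7 chaperones and folding enzymes sit between 54.7 and 307 FPKM and the 3 other genes between 3.05 and 13.8. On this scale the groups do not overlap for CALR, HSP90B1, PDIA3 and HERPUD1. The share of all genes that separate in FPKM was not counted. On library totals, which separate the same genes, 16.0% of all genes lie above and 27.7% below both controls. On the TMM scale the groups overlap for CALR.

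Few of these genes were called changed in shIGF2BP3. A gene was called changed at 1.5-fold or more with an edgeR p, before adjustment, no larger than 0.05, which are the study's cut-offs. By this rule 0 of the 10 genes rose and 1, HERPUD1, fell. Over all genes tested, 2.54% passed these thresholds as higher and 2.78% as lower in shIGF2BP3, 5.32% in all, so 1 of 10 genes is near this background. HERPUD1 was also the 1 member whose p was 0.05 or less whatever its fold, a condition met by 10.5% of all genes. By edgeR with Benjamini-Hochberg adjustment 0% of all genes had an adjusted p under 0.05, and that includes the members. The 10 log2 fold changes ran from -0.81 to 0.34, with 6 above and 4 below 0 and a median of 0.07. The median over all genes tested was -0.002.

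Counted by separation of the libraries, 5 members (HSPA5, HSP90B1, PDIA3, PDIA4 and DNAJB9) were higher in both shIGF2BP3 libraries than in both controls. PDIA6 and HERPUD1 were lower in both. Over all genes the shares were 23.3% higher and 23.5% lower. When libraries were scaled by their totals alone, 2 members, HSP90B1 and PDIA3, lay above both controls, and 2, CALR and HERPUD1, lay below. The shares over all genes then became 16.0% and 27.7%. Summed over the 10 genes, the level was 3527.8 and 3402.5 CPM in shCtrl against 3722.5 and 3664.8 CPM in shIGF2BP3.

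**Figure D2:**
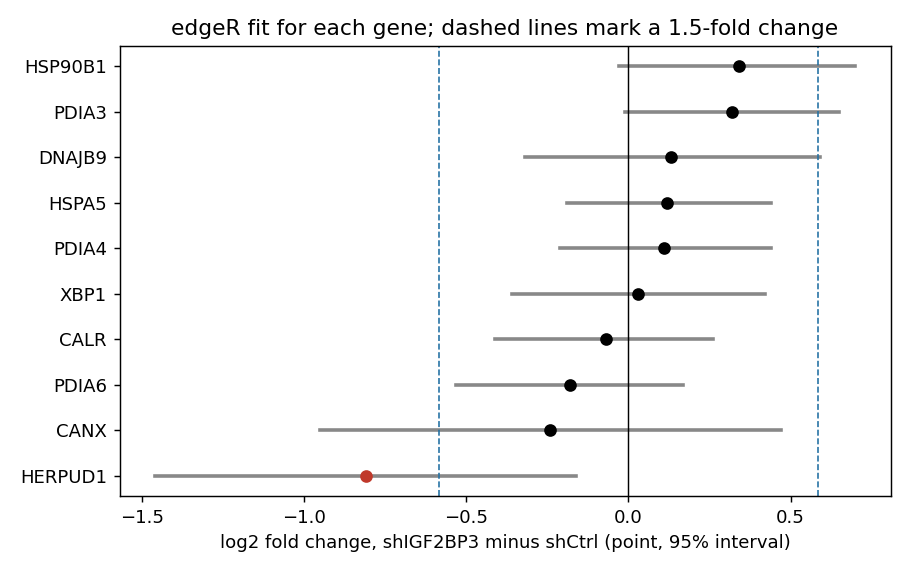
log2 fold change of shIGF2BP3 against shCtrl for the 10 genes from the edgeR fit (points) with 95% intervals (bars); the dashed lines mark a 1.5-fold change and red marks the gene past both thresholds. Of the 10 intervals, that of HERPUD1, from -1.46 to -0.16, alone leaves out 0.

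HSPA5 encodes BiP, the HSP70 chaperone of the ER lumen that also holds the stress sensors inactive, and its gene (ENSG00000044574) lies at chr9:125234853-125241330 on the minus strand. It was measured at 576 and 551 CPM in shCtrl and at 606 and 623 CPM in shIGF2BP3. Both shIGF2BP3 libraries were above both controls, but by little. The log2 fold change was 0.12 (SE 0.13, 95% interval -0.19 to 0.44, adjusted p = 0.711), and the upper bound lies under a 1.5-fold rise.

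HSP90B1 encodes GRP94, the HSP90 chaperone of the ER lumen (ENSG00000166598, chr12:103930107-103953645, plus strand). Its levels were 768 and 778 CPM in shCtrl and 899 and 1051 CPM in shIGF2BP3. The control libraries lay close together, the shIGF2BP3 libraries were both higher, and they differed more from each other than the controls did. This was the largest positive log2 fold change of the 10, at 0.34 (SE 0.14, interval -0.03 to 0.70, adjusted p = 0.48), a 1.26-fold difference. It did not pass the thresholds.

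CALR encodes calreticulin, a soluble lectin that binds calcium and newly made glycoproteins (ENSG00000179218, chr19:12938607-12944489, plus strand). Its levels, 571 and 631 CPM in shCtrl and 580 and 562 CPM in shIGF2BP3, overlapped between the groups. The log2 fold change was -0.07 (SE 0.13, interval -0.41 to 0.26, adjusted p = 0.839).

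CANX encodes calnexin, the membrane-bound lectin of the same folding cycle (ENSG00000127022, chr5:179678628-179730925, plus strand). It was at 547 and 469 CPM in shCtrl, at 550 CPM in shIGF2BP3 replicate 1 and at 312 CPM in replicate 2. The low value of a single library set the group mean: the 2 shIGF2BP3 libraries differed by 0.82 on the log2 scale, more than the group means did (log2 fold change -0.24, SE 0.28, interval -0.95 to 0.47, adjusted p = 0.754). Without shIGF2BP3 replicate 1 the log2 fold change was -0.70 (adjusted p = 0.298) and passed the thresholds, and without replicate 2 it was 0.11.

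The counts of CANX moved between transcripts in the same library. ENST00000452673 held 94.9%, 95.6% and 93.9% of the gene's counts in the shCtrl libraries and shIGF2BP3 replicate 1, but 60.1% in shIGF2BP3 replicate 2. ENST00000247461, which spans the same coordinates (chr5:179698906-179730925), held 39.0% there and at most 5.47% in the others. The counts of ENST00000452673 were 19514 and 15199 in shCtrl against 17818 and 5164 in shIGF2BP3.

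PDIA3 (ERp57), PDIA4 (ERp72) and PDIA6 (P5) are protein disulfide isomerases. PDIA3, which works with calreticulin and calnexin on glycoproteins (ENSG00000167004, chr15:43746392-43773279, plus strand), was at 467 and 430 CPM in shCtrl and at 542 and 578 CPM in shIGF2BP3. Both shIGF2BP3 libraries were above both controls, and the log2 fold change of 0.32 (SE 0.13, interval -0.01 to 0.65, adjusted p = 0.48) was second to HSP90B1 among the positive ones. With edgeR neither HSP90B1 nor PDIA3 had an unadjusted p under 0.05. With DESeq2 both did, at the same fold changes, which were under 1.5-fold.

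PDIA4 (ENSG00000155660, chr7:149003062-149028641, minus strand) was at 210 and 191 CPM in shCtrl and at 214 and 220 CPM in shIGF2BP3. The libraries did not overlap, yet the gap between them was narrow, with a log2 fold change of 0.11 (SE 0.13, interval -0.21 to 0.44, adjusted p = 0.743). PDIA6 (ENSG00000143870, chr2:10783391-10837977, minus strand) went the other way, from 336 and 290 CPM in shCtrl to 284 and 270 CPM in shIGF2BP3. Its log2 fold change was -0.18 (SE 0.14, interval -0.53 to 0.17, adjusted p = 0.638). The 3 isomerases thus did not share a direction.

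DNAJB9 encodes ERdj4, a J-domain partner of BiP that is among the best known targets of spliced XBP1 (ENSG00000128590, chr7:108569568-108574850, plus strand). It was at 11.6 and 10.1 CPM in shCtrl and at 12.0 and 11.8 CPM in shIGF2BP3, so the highest control and the lowest shIGF2BP3 library nearly met. The log2 fold change was 0.13 (SE 0.18, interval -0.32 to 0.59, adjusted p = 0.783).

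XBP1 encodes the transcription factor whose mRNA is cut by IRE1 (ENSG00000100219, chr22:28794555-28800597, minus strand). At 23.8 and 22.2 CPM in shCtrl and 22.4 and 24.7 CPM in shIGF2BP3, the groups overlapped. The log2 fold change was 0.03 (SE 0.16, interval -0.36 to 0.42, adjusted p = 0.955), and its sign turned on library totals and in the fits to FPKM.

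Activity of IRE1 is read from the spliced form of XBP1 rather than from the gene's total. The tables pair the 5 XBP1 transcripts with no isoform name, so the spliced and unspliced forms were not told apart here. ENST00000405219 held 75.1% and 76.9% of the gene's counts in shCtrl and 80.8% and 89.1% in shIGF2BP3. ENST00000611155 held 8.26% and 11.4% in shCtrl and 2.72% and 3.98% in shIGF2BP3, from 74, 86, 21 and 27 counts. The shares of these transcripts did not overlap between the groups. By gene level, 23.3% of all genes lay above and 23.5% below both controls, and no such figure was taken for transcript shares. ENST00000344347 held 15.1% and 9.96% in shCtrl and 11.4% and 3.98% in shIGF2BP3, and ENST00000216037 held 0.112% and 1.59% in shCtrl and 5.05% and 0.295% in shIGF2BP3, both with overlapping groups. The shares were not tested, and the minor transcripts rest on few counts.

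HERPUD1 encodes a membrane protein that joins the ubiquitin ligase complex for degradation of misfolded ER proteins and is itself a UPR target (ENSG00000051108, chr16:56932048-56944863, plus strand). It was at 18.1 and 29.0 CPM in shCtrl and at 13.2 and 13.7 CPM in shIGF2BP3. The shIGF2BP3 libraries lay close together below both controls, while the 2 controls differed by 0.68 on the log2 scale. HERPUD1 fell to 57.0% of the control level, by 0.81 on the log2 scale (SE 0.26, interval -1.46 to -0.16, adjusted p = 0.472).

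The fall of HERPUD1 depended on the libraries used. Without shCtrl replicate 2, the control with the higher value, the log2 fold change was -0.43 (adjusted p = 0.665). Without shIGF2BP3 replicate 1 it was -0.77 (adjusted p = 0.407), and without replicate 2 it was -0.84 (adjusted p = 0.994), each time with an unadjusted p over 0.05, so the gene passed the thresholds in 1 of the 4 fits that left out a library, the fit without shCtrl replicate 1 (-1.11). Its main transcript, ENST00000439977, had 537 and 750 counts in shCtrl and 323 and 336 in shIGF2BP3, and tested alone gave -0.79 (adjusted p = 0.729).

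**Figure D3:**
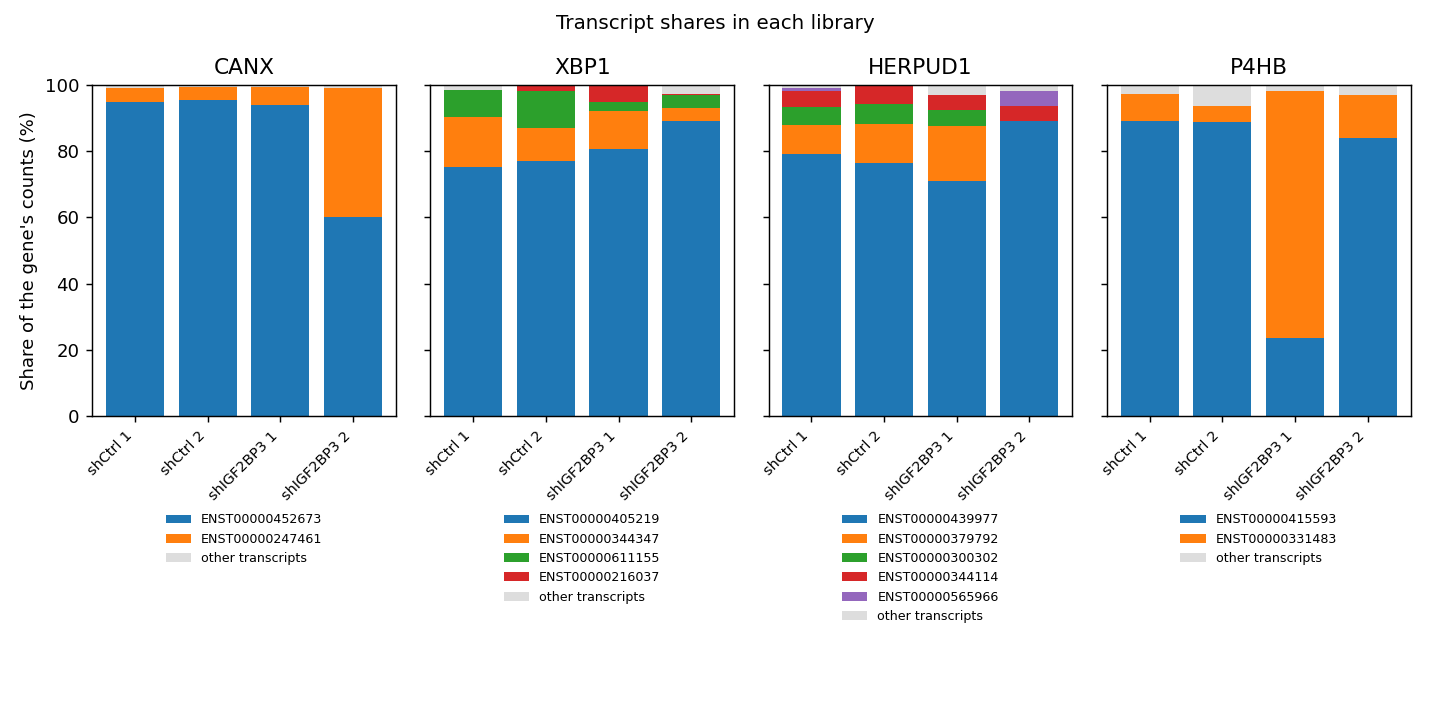
Share of a gene's counts (percent, stacked bars) held by each transcript in each of the 4 libraries for CANX, XBP1, HERPUD1 and P4HB, with transcripts that never exceed 3% drawn in light grey. ENST00000247461 of CANX reaches 39.0% in shIGF2BP3 replicate 2, and ENST00000331483 of P4HB reaches 74.7% in shIGF2BP3 replicate 1. ENST00000452673 remains the largest CANX transcript in all 4 libraries, at 60.1% or more.

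For the remaining 7 members the main transcript held at least 97.9% of the counts in every library. No member shares its strand with an overlapping gene of the table. HSP90B1, CANX, PDIA3, PDIA6 and DNAJB9 each overlap a gene on the opposite strand, and since strand-aware counting is not stated, reads of such pairs could not be told apart. RefSeq also lists the pseudogenes HSPA5P1, PDIA3P1, PDIA3P2 and XBP1P1, none of which was counted as a gene of its own, so reads that fit a pseudogene as well as its parent make the values of HSPA5, PDIA3 and XBP1 uncertain to that extent.

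The wider pathway was followed in 4 further ER lists, with 65 genes tested, of which 2 rose (DNAJC3 and ERP44) and 1 fell (P4HB) at the thresholds. Of the 65, 7 had an unadjusted p of 0.05 or less, 38 had a log2 fold change above 0 and 27 below, and the median was 0.08. The libraries lay above both controls for 18 of them and below for 12. These counts were near the shares over all genes given above. Separations in these and the following lists were counted on TMM-scaled values only.

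None of the 14 stress sensors and their transcription factors had an unadjusted p of 0.05 or less. Their log2 fold changes ran from -0.51 to 0.28, with a median of -0.05. The sensors themselves gave -0.10 for ERN1 (SE 0.20), -0.37 for EIF2AK3 (SE 0.29) and 0.09 for ATF6 (SE 0.17), and the groups overlapped for all 3. EIF2AK3 was lowest in shIGF2BP3 replicate 2, at 3.63 CPM against 5.55 to 6.59 CPM in the others, and its log2 fold change was -0.083 without that library and -0.73 without shIGF2BP3 replicate 1, past the thresholds in neither fit.

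The PERK branch was followed through its factors. ATF4, which is controlled mainly at translation, was at 406 and 472 CPM in shCtrl and 472 and 562 CPM in shIGF2BP3 (log2 fold change 0.23, SE 0.16, adjusted p = 0.59), and its sign turned in the fits to FPKM (-0.012). DDIT3, the pro-apoptotic factor CHOP, was at 28.3 and 19.9 CPM in shCtrl and 20.1 and 23.3 CPM in shIGF2BP3 (-0.15, SE 0.22, adjusted p = 0.798). The groups overlapped for DDIT3, and shCtrl replicate 1 was the highest of the 4 libraries.

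The other 3 genes of this branch gave values on both sides of 0. TRIB3, a pseudokinase induced by CHOP, was lower in both shIGF2BP3 libraries at a log2 fold change of -0.23 (SE 0.16, adjusted p = 0.596). PPP1R15A (GADD34), which restores translation, gave 0.12 (SE 0.16). ATF3 gave 0.28 (SE 0.51), from 6.09 and 2.04 CPM in shCtrl and 4.69 and 5.19 CPM in shIGF2BP3, and its controls lay far apart. Without shCtrl replicate 1 it gave 1.28 (adjusted p = 0.542) and passed the thresholds, and without shCtrl replicate 2 it gave -0.30.

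Among 15 other luminal chaperones and co-chaperones, 11 had a log2 fold change above 0 and the median was 0.22. On TMM-scaled values 6 lay above both controls, against 23.3% of all genes. The count for this list on library totals, where the share of all genes was 16.0%, was not taken. DNAJC3 (p58IPK), a BiP co-chaperone, rose from 13.1 and 10.7 CPM to 15.9 and 20.4 CPM (0.61, SE 0.21, adjusted p = 0.472). DNAJB11 (ERdj3), another J-domain partner of BiP, went from 87.0 and 93.3 CPM to 120 and 147 CPM (0.57, SE 0.16, adjusted p = 0.472), a 1.48-fold difference just under the fold threshold. Its log2 fold change was 0.48 to 0.57 in the other fits to all libraries. With a library left out it ran from 0.41 to 0.72, past 1.5-fold without shCtrl replicate 2 (0.62) or shIGF2BP3 replicate 1 (0.72). HYOU1, the nucleotide exchange factor of BiP, gave 0.19 (SE 0.13, adjusted p = 0.584).

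Other stress-responsive genes of that list were on the other side of 0. MANF, a secreted BiP-binding factor, was at 61.5 and 63.7 CPM in shCtrl and 53.7 and 50.3 CPM in shIGF2BP3, a log2 fold change of -0.27 (SE 0.13, adjusted p = 0.508). SDF2L1 gave -0.10 (SE 0.14) and CRELD2 -0.09 (SE 0.16), with overlapping groups. Values in this list thus lay on both sides of 0.

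In the list of 16 other disulfide and glycoprotein folding enzymes, 12 had a log2 fold change above 0 and the median was 0.17. On TMM-scaled values 9 lay above both controls, against 23.3% of all genes. On library totals the share of all genes was 16.0%, and the count in this list was not taken. ERP44, which retains thiol-containing proteins in the early secretory pathway, rose from 64.0 and 67.5 CPM to 88.4 and 113 CPM (0.61, SE 0.17, adjusted p = 0.472). ERO1A, the oxidase that recharges disulfide isomerases, gave 0.53 (SE 0.20), and MOGS, the first glucosidase of N-glycan trimming, gave 0.55 (SE 0.18). Both had an unadjusted p under 0.05 and were under 1.5-fold. The calls of DNAJC3 and ERP44 were lost on library totals, where their log2 fold changes were 0.51 and 0.53, and in the fits to FPKM. Without shIGF2BP3 replicate 2 they were 0.41 and 0.43, and neither passed. DNAJC3 also missed the thresholds without shCtrl replicate 2, and ERP44 without shCtrl replicate 1.

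P4HB, the founding protein disulfide isomerase (ENSG00000185624, chr17:81843159-81860694), fell by a larger factor than any of the 10 members. It was at 556 and 595 CPM in shCtrl and at 234 and 342 CPM in shIGF2BP3, with no overlap, and the log2 fold change was -1.0 (SE 0.21, interval -1.52 to -0.47, adjusted p = 0.472 with edgeR and 0.00251 with DESeq2).

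The count of P4HB rests on a short transcript. ENST00000415593, at chr17:81843166-81847327, held 89.0% and 88.8% of the counts in shCtrl, 23.6% in shIGF2BP3 replicate 1 and 84.0% in replicate 2, from 18600, 17900, 1906 and 7904 counts. ENST00000331483, which spans the whole gene, had 1743 and 1006 counts in shCtrl and 6044 and 1217 in shIGF2BP3, so its counts were highest in the library where the short transcript was lowest. Tested on the highest transcript alone, P4HB gave -1.62 (adjusted p = 0.758) and no longer passed.

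The 20 genes of ER-associated degradation were centred slightly below 0, at a median of -0.09, with 8 below both controls (23.5% of all genes were), 2 above both and none past the thresholds. SEL1L, the scaffold of the ubiquitin ligase that HERPUD1 joins, gave a log2 fold change of 0.28 (SE 0.15, adjusted p = 0.519). SYVN1, the ligase itself, gave 0.03 (SE 0.16), and EDEM1, a lectin that hands over glycoproteins, gave -0.07 (SE 0.23). The differences in these 3 partners were smaller than that of HERPUD1 and of either sign.

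The 13 heat shock genes, most of them cytosolic and including the mitochondrial chaperonins HSPD1 and HSPE1, had a median log2 fold change of 0.01, from -0.27 to 0.44 (HSPE1). Of the 13, 4 lay above both controls and 1 below, against 23.3% and 23.5% of all genes, and none passed the thresholds. HSPA8 gave -0.27 (SE 0.19), HSP90AB1 -0.12 (SE 0.14) and HSPA1B 0.01 (SE 0.14), with overlapping groups for all 3. HSPA1A gave 0.26 (SE 0.13), from 191 and 209 CPM in shCtrl and 233 and 247 CPM in shIGF2BP3. HSPA1A and HSPA1B are nearly identical, so the division of reads between them is uncertain.

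**Figure D4:**
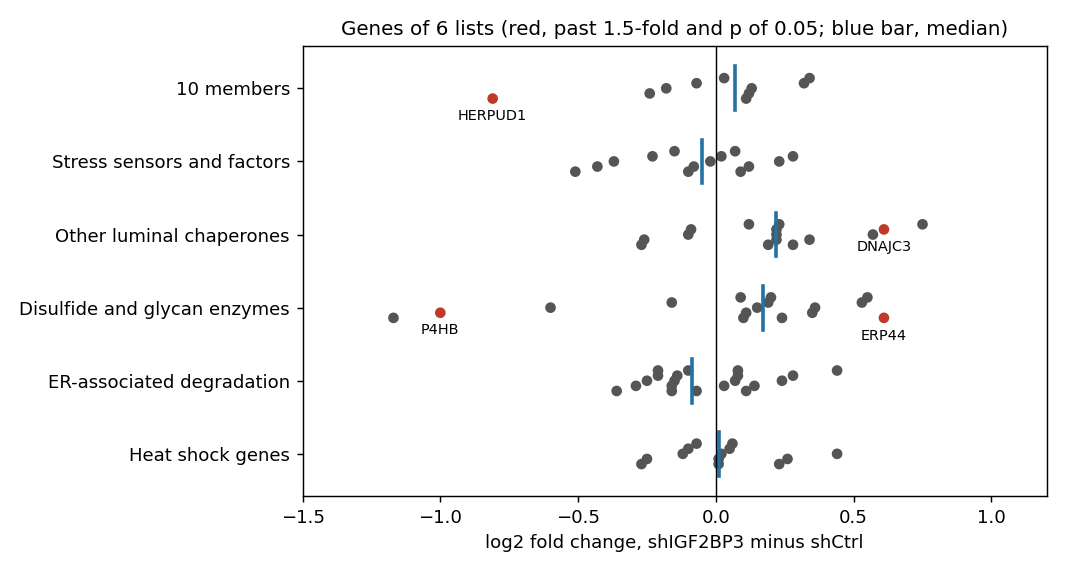
log2 fold change of shIGF2BP3 against shCtrl for each tested gene (points) of the 10 members and 5 further lists, with the median of each list as a blue bar and genes past a 1.5-fold change and a p of 0.05 in red. List medians lie between -0.09 and 0.22, and the named red points are HERPUD1, DNAJC3, ERP44 and P4HB.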

How the data were processed

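RNA-seq was analysed in 4 libraries of H1299 cells, 2 per group (shCtrl and shIGF2BP3), grouped by their titles. For each transcript the authors deposited whole-number estimated counts, not normalized, and FPKM values, which take account of transcript length and library depth. The submitters' processing notes name CASAVA, FastQC, Trimmomatic, HISAT2, bedtools and GRCh38; the counter and strand setting are not given in the sources used here. Deposited shIGF2BP3 columns are numbered differently from the labels and were assigned through the identically named per-sample FPKM tables.

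Values of 95139 transcripts were summed to 20263 genes. Symbols came from RefSeq (GRCh38.p14) where a RefSeq and a table gene were each other's best overlap (shared part at least 0.5, lead 0.2), which named 18222 genes. FKBP2 and DNAJB1 of the lists and the chosen lung marker SFTPC were not matched. The test was edgeR 4.0.16 under R 4.3.3 (TMM, filterByExpr at a minimum count of 10 and total of 15, quasi-likelihood fit, prior count 0.125, group only), with Benjamini-Hochberg adjustment over 13379 genes; the SE is the fold change over the root of its F statistic. Tests were two-sided. At a common biological coefficient of variation of 22.8%, 2 libraries per group limited precision more than depth did. Replicates differed beyond counting noise (chi-square per degree of freedom 79.1 in shCtrl and 78.6 in shIGF2BP3). The labels do not say that replicates came from separate infections. The p-values and SE rest on the spread between these libraries, with each gene's estimate drawn towards a trend over all genes. A gene whose libraries lay close together can therefore have an SE larger than its own spread.

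The genes named are the 10 members, IGF2BP3, a fixed set of sensors, partners and targets, and any list gene past both thresholds. MOGS, HSPA1A and the genes named in the closing section that are outside this rule were chosen after their values were seen. The members and lists were chosen with earlier results of these data known. As alternatives, DESeq2 1.42.0 was run, scaling used RLE factors or library totals with and without mitochondrial genes, and the others were 2 other filters, a replicate block, limma 3.58.1 on log2 FPKM with a pseudocount of 1 or 0.1, where 2 libraries had to reach an FPKM of 1, and with a pseudocount of 1 and no such filter, the highest transcript of each gene, an adjusted p under 0.05, and each library left out in turn.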

Additional observations from a re-analysis of the deposited data

How the results depend on the processing

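Of the 10 members, 0 rose under every alternative run. HERPUD1 was the 1 member called lower, and the count became 0 on the highest transcript of each gene and at an adjusted p under 0.05, and ran from 0 to 1 with a library left out, where without shIGF2BP3 replicate 1 the 1 call was CANX (-0.70) instead. On library totals 2 rather than 5 members lay above both controls, a comparison added after seeing the data. This comparison was not made for the other lists. The members' median of 0.071 became -0.013 when scaled by library totals. In limma it became -0.009 at a pseudocount of 1, with or without the filter, and -0.011 at 0.1, where the median over all genes was -0.07, -0.026 without the filter and -0.081 (library totals, -0.081). It ran from 0.018 (without shCtrl replicate 2) to 0.122 with a library left out. IGF2BP3 passed the thresholds on library totals (-0.62) and with limma (-0.60, -0.68 and -0.60), and ran from -0.68 (without shCtrl replicate 2, past the thresholds) to -0.36 (without shCtrl replicate 1).

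Of the other ER genes, the 2 called higher became 0 on library totals with and without mitochondrial genes, in the 3 limma fits and at an adjusted p under 0.05, and ran from 1 (without shIGF2BP3 replicate 2) to 6 (without shIGF2BP3 replicate 1) with a library left out, 4 without shCtrl replicate 1. On the highest transcript 2 other genes, DERL1 and MOGS, were called higher. The 1 called lower became 2 in the limma fits (P4HB and DERL1), 0 on the highest transcript and at an adjusted p under 0.05, and ran from 2 to 3 with a library left out. Over all genes, 340 were called higher and 372 lower, against 195 and 485 on library totals, 127 and 339 in limma at a pseudocount of 1, 175 and 455 at 0.1 and 106 and 261 without the filter. Leaving out shIGF2BP3 replicate 1 gave 1552 calls in place of 712. At an adjusted p under 0.05, edgeR called 0 genes (1411 reached an unadjusted p of 0.05), 17 without the low-count filter, 84 without shIGF2BP3 replicate 1 and 5 without replicate 2; DESeq2 called 155, and limma 8 and 9. The causes were not tested.

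Of the values of 33 single genes under the alternatives, 433 kept direction and side of the threshold, 21 lost the call, 6 gained it and 35 turned sign. XBP1 (0.03) was -0.056 on library totals, -0.003 without mitochondrial genes, -0.065, -0.069 and -0.065 with limma, and ran from -0.042 to 0.11 with a library left out. SYVN1 was -0.036 on library totals, -0.054, -0.059 and -0.054 with limma, and -0.085 to 0.17 with a library left out. HSPA1B was -0.065 on library totals, -0.019 without mitochondrial genes, -0.055 in the 3 limma fits, -0.025 on the highest transcript, and -0.095 to 0.12 with a library left out. ATF4 was -0.012 in the 3 limma fits and 1.64 (adjusted p = 0.776) on the highest transcript. With a library left out CANX ran from -0.70 to 0.11, ERN1 from -0.21 to 0.02, ATF6 from -0.041 to 0.21, DDIT3 from -0.38 to 0.13, ATF3 from -0.30 to 1.28 (past the thresholds, without shCtrl replicate 1), PPP1R15A from -0.006 to 0.26, CRELD2 from -0.19 to 0.028 and EDEM1 from -0.27 to 0.16.

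The replicate numbers did not pair the libraries: deviations of same-numbered libraries correlated at 0.022. With the replicate block, 354 genes were called higher and 418 lower, HERPUD1 was the 1 member called and IGF2BP3 gave -0.53, and no call changed among the members, the genes of the 4 other ER lists or the 33 single genes.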

Other observations

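TXNDC5, CALU and CREB3L2 each had a single library apart from the other 3. GANAB varied widely within both groups, and EDEM3 within shIGF2BP3. These genes were singled out after their values were seen, and no explanation was tested. TXNDC5, a disulfide isomerase of the ER, was at 329 CPM in shCtrl replicate 1 against 83.0, 108 and 75.4 CPM in the other 3 libraries (log2 fold change -1.17, SE 0.62, adjusted p = 0.52). CALU, a calcium-binding luminal protein, was at 101 CPM in shIGF2BP3 replicate 2 against 45.8, 34.6 and 34.8 CPM elsewhere, and the share of its main transcript ran from 14.2% to 93.3%. CREB3L2, an ER-anchored transcription factor, was at 1.85 CPM in shIGF2BP3 replicate 1 against 20.8, 13.0 and 22.0 CPM. GANAB, the catalytic subunit of glucosidase II, was at 323 and 558 CPM in shCtrl and 382 and 198 CPM in shIGF2BP3. EDEM3, of the ER-associated degradation list, was at 11.9 and 11.8 CPM in shCtrl and 2.17 and 19.1 CPM in shIGF2BP3.

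FAF2 and HSPE1 had an unadjusted p under 0.05 at less than a 1.5-fold change. FAF2, which recruits VCP to the ER membrane, was at 138 and 139 CPM in shCtrl and 175 and 201 CPM in shIGF2BP3 (0.44, SE 0.14, adjusted p = 0.472). HSPE1, a mitochondrial co-chaperonin in the heat shock list, was at 345 and 421 CPM in shCtrl and 482 and 553 CPM in shIGF2BP3 (0.44, SE 0.16, adjusted p = 0.472).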
